A study of Mus musculus with 12 samples.

Results

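The genes described here import, export, store and sense iron in Min6 cells, a mouse insulinoma line widely used as a model of insulin-secreting beta cells. They are Slc40a1, Heph, Tfrc, Steap3, Slc11a2, Fth1, Aco1 and Ireb2. Each member was taken as every row (probe set) of the expression table whose platform annotation gave that symbol and no other. All 8 genes were found, each with a single row, among 19938 genes so named and 35556 rows in all. With 1 row a gene, transcript isoforms were not told apart.

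Total RNA was measured on Affymetrix Mouse Gene 1.0 ST arrays, 12 in all and 4 for each culture condition. Every culture ran for 15 days in 3 periods of 5 days, the first of them in serum. In the return condition (RC) the cells then had 5 days in serum-free medium at 5% oxygen and 5 final days back in serum at 20% oxygen. In the defined condition (DC) both later periods, 10 days in all, were serum-free at 5% oxygen. In the classic condition (CC) they stayed in serum at 20% oxygen throughout. The serum medium was DMEM with 15% fetal calf serum and 2-mercaptoethanol. The serum-free medium was DMEM-F12 with 100 µg/mL apo-transferrin, which is transferrin without its iron, 20 nM progesterone, 100 µM putrescine and 30 nM selenite. Basal medium, serum, oxygen and supplements changed together, so their parts in a difference cannot be told apart, and RC against DC also holds the shorter serum-free time. All samples came from a single experiment with 1 cell line, so p-values measure the spread between these cultures.

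Most cells take up iron that is bound to transferrin. The transferrin receptor carries it into endosomes, the reductase Steap3 reduces it, and the carrier encoded by Slc11a2 moves it into the cytosol. There it is used, stored in ferritin, of which Fth1 encodes the heavy chain, or exported by ferroportin, the product of Slc40a1, with the help of a ferroxidase such as hephaestin (Heph). Aco1 and Ireb2 encode the iron regulatory proteins, which bind iron-responsive elements in messenger RNAs when iron is scarce. Binding near the start of the Fth1 and Slc40a1 messages blocks their translation, and binding near the end of the Tfrc message stabilises it. The arrays measured messenger RNA only. Beta cells are known for their sensitivity to iron overload, and in mice Slc11a2 in beta cells has been tied to damage by inflammatory cytokines.

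The values are log2 expression values, on which a difference of 1 is a doubling. Array medians ranged from 7.92 to 8.05. The arrays CC 1 and CC 2 differed from CC 3 and CC 4, with interquartile ranges of 2.73 and 2.75 against 2.58 and 2.57, and RC 3 correlated less with its group (mean 0.976) than the other RC arrays did (0.989 to 0.990). The 12 beta cell markers looked up averaged 11.73 to 11.96 on every array. In DC against CC 3 of them differed, Nkx2-2 and Slc30a8 being higher in DC and Chgb lower, where 6.64% of all rows differed. In RC against DC 2 differed, Nkx2-2 and Slc30a8, both lower in RC (2.63% of all rows). In RC against CC 0 differed (0.796% of all rows). Of 23 markers of immune, liver, endothelial, fibroblast and red blood cells, 17 were below the median of all values, 7.99, on every array. Only 3 of the 6 fibroblast markers were among these 17. Of 4 red blood cell markers listed only Epor was measured, and it was not among them either. Nor were the immune marker Cd68 (mean 9.91 in RC, 9.84 in DC and 9.67 in CC) and the liver marker Apoa1 (8.24 in RC, 8.28 in DC and 8.18 in CC). Tat, a liver enzyme gene, was the only 1 of the 23 that differed in DC against CC and in RC against DC. No immune marker passed in any comparison by limma, and the mean of the 8 immune markers was 7.06 to 7.33 on the RC arrays, 7.16 to 7.20 on the DC arrays and 7.0 to 7.11 on the CC arrays. In a bulk culture fewer cells that express a gene and less RNA per cell cannot be told apart.

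**Figure D1:**
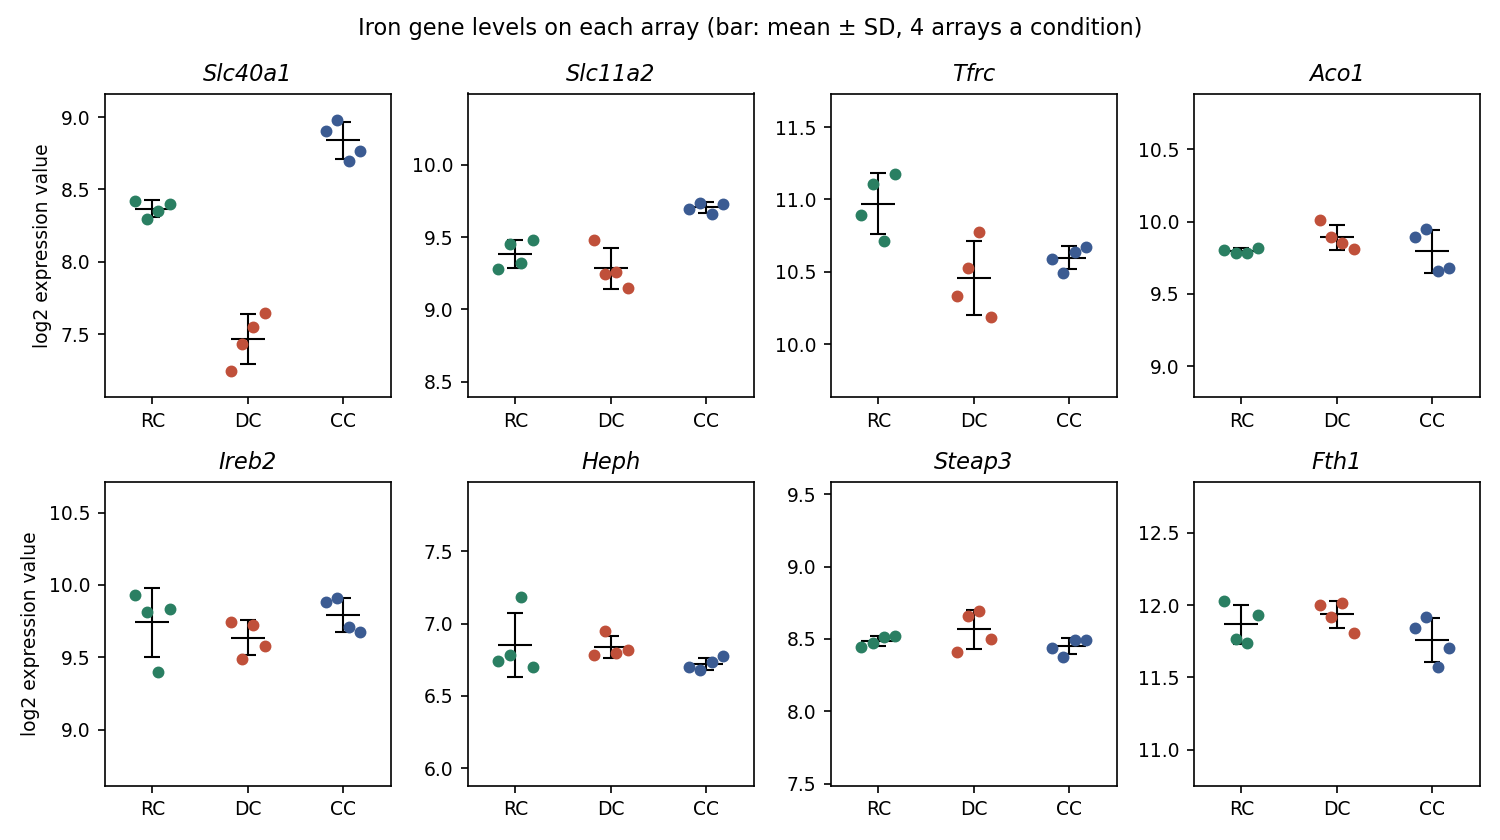
Log2 expression value of each of the 8 iron genes on each array, 1 panel a gene, all panels spanning the same height in log2 units. Points are arrays and bars the mean ± SD of 4 arrays. Slc40a1 separates the 3 conditions, Slc11a2 is high in CC, and Tfrc has its highest values in RC.

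Of the 8 genes, the exporter gene Slc40a1 had the largest differences in all 3 comparisons. It was lowest in DC, intermediate in RC and highest in CC, with no overlap between any pair of conditions. On the RC arrays 1 to 4 it read 8.42, 8.30, 8.35 and 8.40. On the DC arrays it read 7.25, 7.43, 7.55 and 7.64, all below the median of all values, 7.99. On the CC arrays it read 8.91, 8.98, 8.70 and 8.77. The RC values were tight (SD 0.06) and lay between the others. The means were 8.37 ± 0.06 in RC, 7.47 ± 0.17 in DC and 8.84 ± 0.13 in CC (SD, n = 4 each).

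In DC against CC, Slc40a1 fell by 1.37 ± 0.09 on the log2 scale (SE), to 38.6% of the CC level (limma adjusted p = 2.89e-06). This was the 32nd largest fall among all rows. In RC against DC it was higher by 0.90 ± 0.09, or 1.87-fold (limma adjusted p = 0.000146). In RC against CC it was lower by a difference of -0.47 ± 0.09, at 72.2% of the CC level (limma adjusted p = 0.0341). The RC against CC difference was thus 34.3% of the log2 difference between DC and CC. No array was taken before the return to serum, so a change over time within a culture was not measured. Among the 1537 rows that were lower in DC than in CC, 419 were higher in RC than in DC. Slc40a1 was among the 32 of these (2.08% of the 1537) that were also lower in RC than in CC. These comparisons share arrays.

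The first 2 of these calls held under all 22 other settings tried, with differences of -1.48 to -1.27 for DC against CC and 0.83 to 0.98 for RC against DC. With single arrays left out, the call for RC against CC held only without DC 1, DC 3 or DC 4. It was lost without any other array, where the adjusted p reached 0.121 and the difference stayed between -0.52 and -0.42. It was also lost with CC 3 and CC 4 as the sole CC arrays (-0.37, adjusted p = 0.310) and with CC 1 and CC 2 (-0.58, adjusted p = 0.132).

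Heph, the ferroxidase that works beside ferroportin, did not pass in any comparison. It was the only member below the median of all values on every array, and no detection calls were available. It read 6.74, 6.78, 7.18 and 6.70 on the RC arrays, 6.78, 6.95, 6.80 and 6.82 on the DC arrays and 6.70, 6.68, 6.74 and 6.77 on the CC arrays. All 4 DC values lay above the 4 CC values, by a narrow margin. The difference was 0.11 ± 0.09 for DC against CC (95% interval -0.09 to 0.32), 0.02 ± 0.09 for RC against DC (-0.19 to 0.22) and 0.13 ± 0.09 for RC against CC (-0.08 to 0.34). The single high RC value is that of RC 3. Without it, RC against DC was -0.10 and RC against CC 0.02.

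The importer gene Slc11a2, also called DMT1, was lower in DC than in CC and did not differ detectably between RC and DC. It read 9.28, 9.45, 9.32 and 9.48 on the RC arrays. On the DC arrays it read 9.48, 9.24, 9.26 and 9.15. On the CC arrays it read 9.69, 9.74, 9.66 and 9.73. Each RC and DC value was below each CC value, and RC and DC overlapped. The means were 9.38 ± 0.10 in RC, 9.28 ± 0.14 in DC and 9.70 ± 0.04 in CC (SD, n = 4 each).

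In DC against CC, Slc11a2 fell by 0.42 ± 0.08 (SE), to 74.7% of the CC level (limma adjusted p = 0.00452). RC against DC did not pass (0.10 ± 0.08, 95% interval -0.07 to 0.26). RC against CC did not pass either, at -0.32 ± 0.08 (95% interval -0.49 to -0.16; unadjusted p = 0.00108 and adjusted p = 0.0840 by limma). On the log2 scale the RC against CC difference was 76.4% of the difference between DC and CC. The fall in DC passed under 21 of the 22 other settings and missed with CC 3 and CC 4 as the sole CC arrays (-0.41, adjusted p = 0.0656). The RC against CC difference passed without DC 1 (adjusted p = 0.0384), with dim rows left out (0.0490) and with array weights (0.00690). Leaving out single arrays otherwise gave adjusted p up to 0.260.

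The transferrin receptor gene Tfrc had its highest values in RC. It is regulated both by iron, through its message, and by low oxygen, as a known target of the hypoxia-inducible factors. These bind the core letters ACGTG or GCGTG. The stretch before an annotated start site is shown because DC cells were at 5% oxygen. It spans bases -127 to 3 around the start of transcription (RefSeq, GRCm38.p6, chr16:32608769-32608898, plus strand), with every ACGTG and GCGTG of either strand in capitals.
Tfrc: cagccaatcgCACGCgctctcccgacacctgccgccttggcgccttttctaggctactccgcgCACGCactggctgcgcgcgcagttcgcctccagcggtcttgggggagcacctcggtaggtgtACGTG
RefSeq windows of 250 bases before and 50 after a start site were matched for 5 of the 8 members (10 windows). ACGTG was found in 2 of the 10 windows, both of Tfrc, which overlap and share the same match. GCGTG was found in 4 of the 10, of Tfrc, Steap3 and Fth1. Over all 32851 windows of this length 19.6% hold ACGTG and 32.4% GCGTG on either strand. A match is a run of letters and was not tested as a binding site.

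Tfrc read 10.89, 11.10, 10.71 and 11.18 on the RC arrays. On the DC arrays it read 10.33, 10.53, 10.78 and 10.19. On the CC arrays it read 10.58, 10.49, 10.64 and 10.67. All 4 RC values were above all 4 CC values, while DC 3 lay above RC 3. The DC values spread widely (SD 0.26) around those of CC (SD 0.08).

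No Tfrc comparison passed the threshold. In DC against CC, where oxygen was low, the difference was -0.14 ± 0.13 (95% interval -0.42 to 0.14; limma adjusted p = 0.50). With single arrays left out it was -0.25 (without DC 3) to -0.05 (without DC 4). RC against DC came closest, at 0.51 ± 0.13 or 1.43-fold (95% interval 0.24 to 0.79; unadjusted p = 0.00159 and adjusted p = 0.0565 by limma). It passed in 5 of the 22 other settings, which were those without DC 3 (adjusted p = 0.0198), without RC 3 (0.0132), with quantile normalization (0.0397), with dim rows left out (0.0290) and with array weights (0.00626). The difference was 0.42 to 0.62 over all 22. RC against CC stood at 0.38 ± 0.13 (95% interval 0.10 to 0.65; limma adjusted p = 0.294) and passed with array weights alone (adjusted p = 0.0166).

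**Figure D2:**
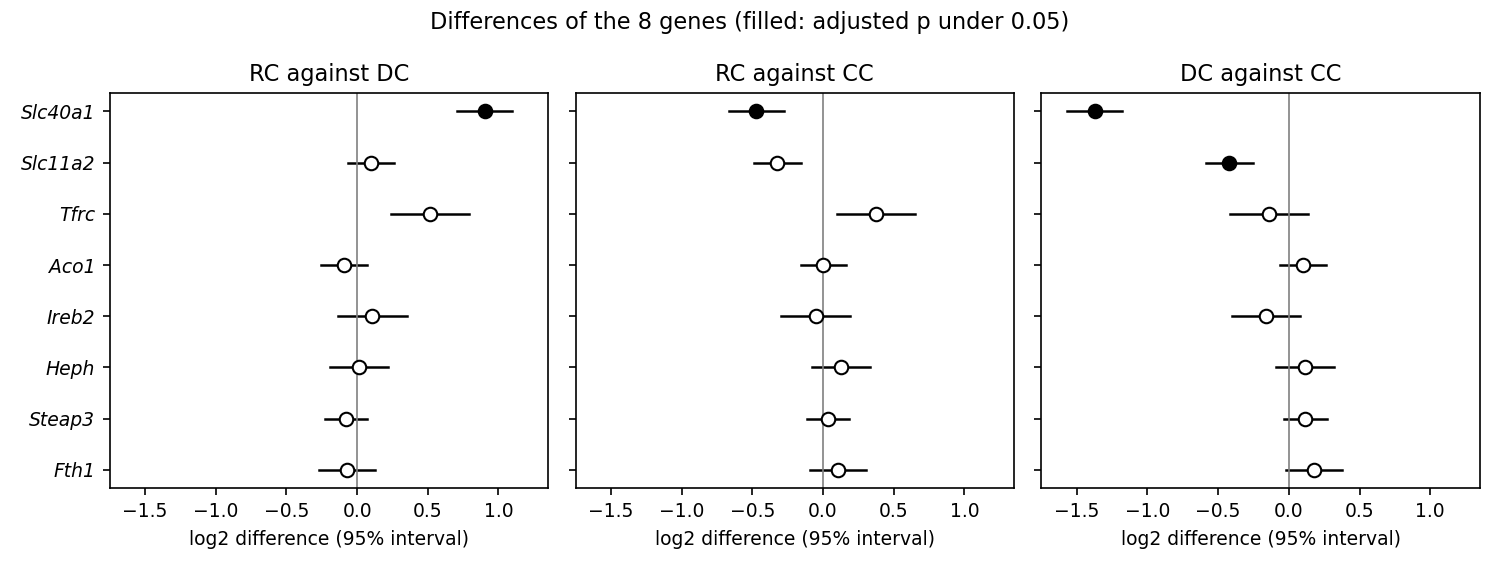
Log2 difference of each of the 8 genes in each comparison, with its 95% interval from limma. Filled points have an adjusted p under 0.05: Slc40a1 in all 3 comparisons and Slc11a2 in DC against CC.

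Steap3, the endosomal ferrireductase, stayed within a narrow range. It read 8.44, 8.47, 8.51 and 8.52 on the RC arrays, 8.41, 8.66, 8.70 and 8.50 on the DC arrays and 8.44, 8.37, 8.49 and 8.49 on the CC arrays. The groups overlapped in every comparison. The differences were 0.12 ± 0.07 for DC against CC (95% interval -0.03 to 0.27), -0.08 ± 0.07 for RC against DC (-0.23 to 0.07) and 0.04 ± 0.07 for RC against CC (-0.11 to 0.19).

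Fth1, which encodes the ferritin heavy chain, is controlled by iron mainly at translation. Its message read 12.03, 11.76, 11.74 and 11.93 on the RC arrays, 12.001, 11.92, 12.01 and 11.81 on the DC arrays and 11.84, 11.92, 11.57 and 11.70 on the CC arrays. The DC values stood toward the upper end of the range, and the groups overlapped. DC against CC was 0.18 ± 0.09 (95% interval -0.02 to 0.37; limma adjusted p = 0.285), RC against DC -0.07 ± 0.09 (-0.27 to 0.13) and RC against CC 0.11 ± 0.09 (-0.09 to 0.30). With CC 3 and CC 4 as the sole CC arrays, DC against CC was 0.30, and with CC 1 and CC 2 it was 0.05.

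The messages of both iron regulatory proteins stayed within 0.16 log2 units between any pair of conditions. Aco1, whose product is an aconitase when it carries an iron-sulfur cluster and an RNA-binding protein when it does not, read 9.80, 9.78, 9.78 and 9.82 on the RC arrays. It read 10.01, 9.90, 9.85 and 9.81 on the DC arrays and 9.89, 9.95, 9.66 and 9.68 on the CC arrays. The CC values spanned those of RC. The differences were 0.10 ± 0.07 for DC against CC (95% interval -0.06 to 0.26), -0.09 ± 0.07 for RC against DC (-0.26 to 0.07) and 0.00 ± 0.07 for RC against CC (-0.16 to 0.17). With CC 1 and CC 2 as the sole CC arrays DC against CC was -0.03, and with CC 3 and CC 4 it was 0.22.

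Ireb2, whose product is removed from iron-replete cells by degradation of the protein, read 9.93, 9.81, 9.39 and 9.83 on the RC arrays. It read 9.74, 9.49, 9.72 and 9.58 on the DC arrays and 9.88, 9.91, 9.71 and 9.68 on the CC arrays. RC 3 was the lowest of all 12 values. The differences were -0.16 ± 0.11 for DC against CC (95% interval -0.40 to 0.08), 0.11 ± 0.11 for RC against DC (-0.13 to 0.35) and -0.05 ± 0.11 for RC against CC (-0.29 to 0.19). Without RC 3 the RC against DC difference was 0.22 (limma adjusted p = 0.117) and RC against CC 0.06, and with array weights RC against DC passed (0.25, adjusted p = 0.0440). With CC 1 and CC 2 as the sole CC arrays DC against CC was -0.26 and RC against CC -0.15, and with CC 3 and CC 4 they were -0.06 and 0.05.

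Counted together, 2 of the 8 genes differed in DC against CC, both lower (25.0%), where 6.64% of all rows differed, 4.32% being lower and 2.31% higher (1537 and 823 rows, or 1698 and 502 once array medians were made equal). In RC against DC 1 of 8 differed and was higher, where 2.63% of all rows differed, 1.45% being higher and 1.18% lower. In RC against CC it was 1 of 8, which was lower, where 0.796% of all rows differed, 0.675% being lower and 0.121% higher. This last count was 0 without CC 1, CC 2, CC 3, CC 4, DC 2, RC 1, RC 2, RC 3 or RC 4 and 2 without DC 1. In RC against DC 2 passed without DC 3 or RC 3. In DC against CC the groups did not overlap for 3 of 8 genes, 2 lower and 1 higher, beside 15.3% of all rows (7.96% lower and 7.29% higher). In RC against DC they did not overlap for 1 of 8, which was higher, beside 6.29% (3.06% higher and 3.23% lower). In RC against CC it was 3 of 8, 2 lower and 1 higher, beside 7.94% (5.45% lower and 2.49% higher). The median difference of the 8 was -0.02 in DC against CC, 0.06 in RC against DC and 0.02 in RC against CC, beside medians of 0.04, -0.01 and 0.03 over all rows. The other 6 genes passed in no comparison. The 8 genes, and the lists below, were chosen with earlier results of these data known. Their shares beside those of all rows are therefore no test of the genes as a set.

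**Figure D3:**
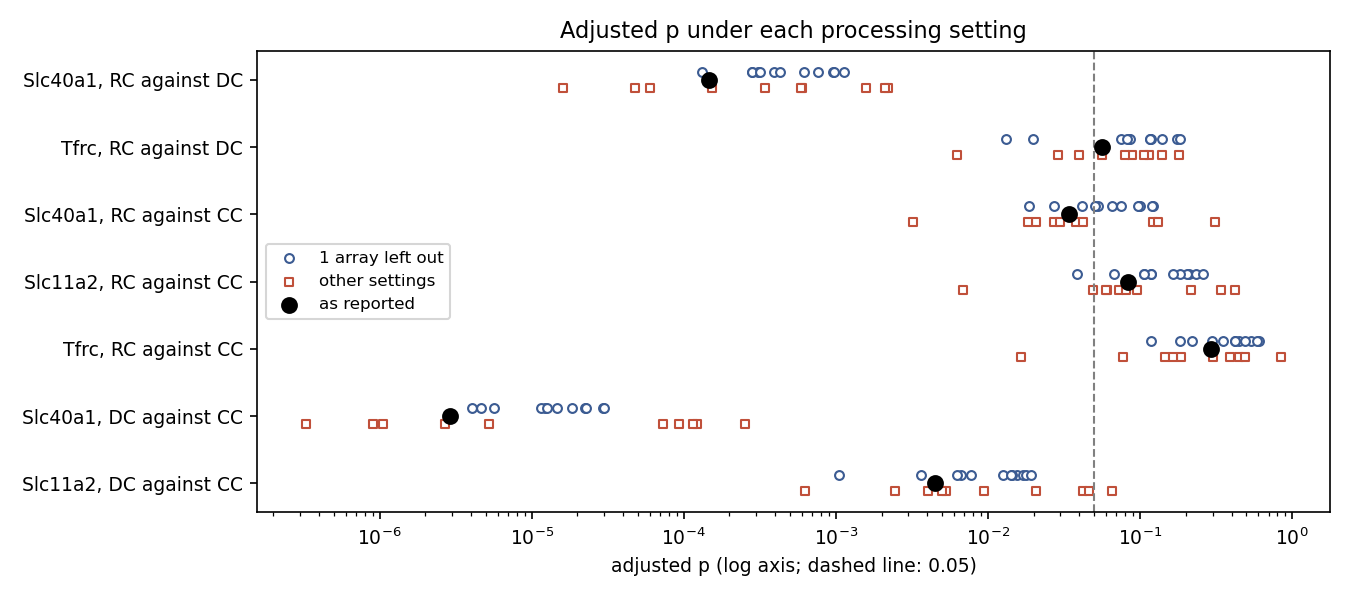
Adjusted p (log axis) of 7 differences under each processing setting. Filled points are the values as reported, circles leave out 1 array each, and squares are the other settings. Slc40a1 in DC against CC and RC against DC stays left of the dashed line at 0.05 throughout. All the other differences shown, of Slc40a1, Slc11a2 and Tfrc, fall on both sides of it.

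The split within CC touches most of these genes. CC 1 and CC 2 were both above CC 3 and CC 4 in Slc40a1, Aco1, Ireb2 and Fth1, by 0.20 to 0.25 log2 units on average, and both below them in Tfrc, Heph and Steap3. That makes 7 of 8 genes without overlap between the array pairs, beside 63.5% of all rows. Both levels of Slc40a1 in CC were above all RC and DC values. The part of this split in the differences of Aco1, Ireb2 and Fth1 was not tested beyond the values given with each pair of CC arrays.

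Other genes of iron metabolism were set beside these. Of 33 further genes of iron transport, storage and regulation, 2 fell in DC against CC and none rose (6.06%, beside 6.64% of all rows). Slc39a14, a carrier of zinc and of iron that is not bound to transferrin, averaged 9.35 ± 0.05 in DC and 9.71 ± 0.04 in CC (SD, n = 4 each), a difference of -0.36 ± 0.06 (SE; limma adjusted p = 0.00311). This call held with each single array left out. Slc46a1, a folate and heme carrier, averaged 8.66 ± 0.12 in DC and 8.91 ± 0.02 in CC (-0.25 ± 0.07, limma adjusted p = 0.0403), and its call was lost without each array except DC 3, RC 3 and RC 4 (adjusted p up to 0.102). The count was 4 without RC 3, 2 without DC 3 or RC 4 and 1 without any other single array. The genes added without RC 3 were higher in DC, the metalloreductase gene Steap4 at 0.30 (adjusted p = 0.0145) and Lcn2, whose product binds iron-carrying siderophores, at 0.30 (adjusted p = 0.0252).

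None of the 33 passed by limma in RC against DC (3 at an unadjusted p under 0.05) or in RC against CC (2), although 2 passed in RC against DC without RC 3 and 1 in RC against CC without RC 4. In RC against CC Slc39a14 stood at -0.27 ± 0.06 (adjusted p = 0.0692) and Slc46a1 at -0.26 ± 0.07 (adjusted p = 0.113), with no overlap of the groups for either gene. Hfe (-0.17 ± 0.08, adjusted p = 0.613) was also lower without overlap, as were 5.45% of all rows. In RC against DC the smallest p were those of Exoc6, a gene of endosome traffic (0.29 ± 0.11, adjusted p = 0.276), and Slc25a28, a mitochondrial iron carrier (-0.14 ± 0.06, adjusted p = 0.363). The median difference of the 33 genes was 0.05 in DC against CC, -0.03 in RC against DC and 0.04 in RC against CC, close to that of all rows. The ferritin light chain gene Ftl1, named here for its role after its values were seen, averaged 11.76 ± 0.06 in RC, 11.78 ± 0.16 in DC and 11.62 ± 0.11 in CC. It did not pass, except in DC against CC with quantile normalization (0.22, adjusted p = 0.0499) and in RC against CC with array weights.

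**Figure D4:**
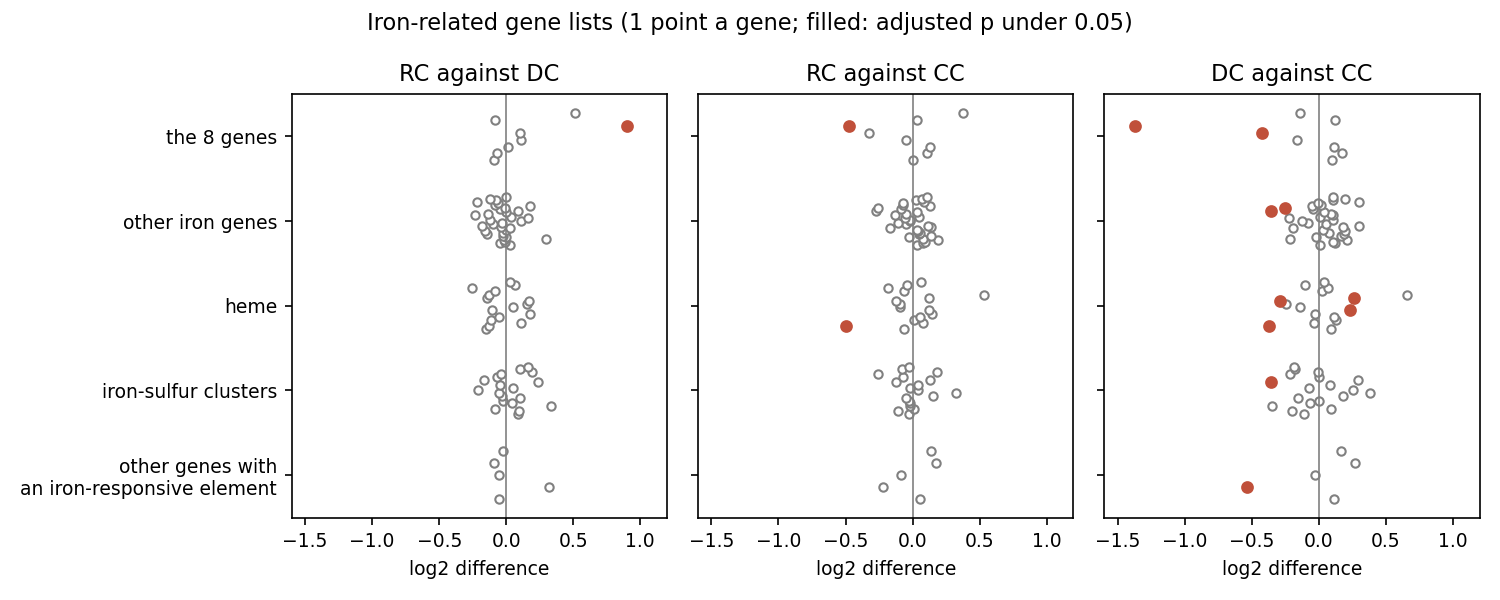
Log2 differences of the 8 genes and of 4 lists of other iron-related genes in each comparison. Each point is a gene, and filled points have an adjusted p under 0.05. Slc40a1 has the largest differences in RC against DC and in DC against CC among the genes shown.

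Of 16 measured genes that make, move or break down heme, 2 rose and 2 fell in DC against CC (25%). Of all rows 6.64% differed there, 2.31% being higher and 4.32% lower. The heme exporter gene Flvcr1 fell by 0.29 ± 0.06 (limma adjusted p = 0.00790), and a second row of it gave -0.55 ± 0.11 (adjusted p = 0.00776). The porphyrin transporter gene Abcb6 fell by 0.37 ± 0.10 (adjusted p = 0.0374). The related transporter gene Flvcr2 rose by 0.27 ± 0.06 (adjusted p = 0.0174), with group means below the median of all values, and the biliverdin reductase gene Blvrb by 0.23 ± 0.06 (adjusted p = 0.0476).

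Of these heme genes, Flvcr1 passed with each single array left out. Flvcr2 missed without CC 1, CC 2 or DC 2 (adjusted p up to 0.0668), Abcb6 without CC 1, CC 2, CC 4, DC 2, DC 4, RC 1 or RC 2 (up to 0.117) and Blvrb without each array except DC 2 and RC 3 (up to 0.124). The count was 1 without CC 1 or CC 2 and 2 without CC 4, DC 2, RC 1 or RC 2. In RC against CC 1 of 16 passed (6.25%, beside 0.796% of all rows), Abcb6, at -0.50 ± 0.10 (limma adjusted p = 0.0362). Abcb6 missed without CC 1, CC 2, CC 3, CC 4, DC 2, RC 1, RC 2 or RC 3 (up to 0.129), while 2 heme genes passed without DC 4. With the compared groups alone Abcb6 missed (adjusted p = 0.0533) and Hmox1, the heme oxygenase gene, passed instead, with higher values in RC (0.53, adjusted p = 0.0334). In RC against DC none passed by limma (5 at an unadjusted p under 0.05), with the smallest p at Ppox, an enzyme of heme synthesis (-0.25 ± 0.07, adjusted p = 0.113), and Flvcr1 (0.17 ± 0.06, adjusted p = 0.202), whose second row gave 0.38 ± 0.11 (adjusted p = 0.105). Hmox1, named here for its role after its values were seen, averaged 9.76 ± 0.08 in RC, 9.89 ± 0.52 in DC and 9.24 ± 0.16 in CC and did not pass in any comparison. Without DC 4 it passed in DC against CC (0.90, adjusted p = 0.000530) and in RC against CC (adjusted p = 0.0388). Hmox1 also passed in DC against CC with quantile normalization (limma adjusted p = 0.0340), array weights (0.00716) and dim rows left out (0.0372). The same held without the 3 arrays of narrowest spread (0.00283). In RC against CC it passed with array weights too (0.0159).

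Of 19 measured genes of iron-sulfur cluster assembly, 1 fell in DC against CC and none rose (5.26%, beside 6.64% of all rows). At an unadjusted p under 0.05 by limma, 5 were lower and 4 higher, but the share of all rows at that threshold was not counted. The gene called was the scaffold gene Iscu (-0.36 ± 0.10, limma adjusted p = 0.0488), a known target of a hypoxia-induced microRNA in human cells. A second row of Iscu gave -0.35 ± 0.10 and missed the threshold (adjusted p = 0.0501). The call was lost without CC 1, CC 2, CC 3, DC 2, DC 3, RC 1, RC 2 or RC 4 (up to 0.160), and 3 genes of the list passed without DC 4 and 2 without RC 3. Lyrm4, named here after its values were seen, was higher in DC (0.30 ± 0.08) and missed (limma adjusted p = 0.0532). Lyrm4 passed in place of Iscu without CC 1 (adjusted p = 0.0498) or DC 2 (0.0395). None of the 19 passed by limma in RC against DC (3 at an unadjusted p under 0.05, and 1 by adjusted p without RC 3) or in RC against CC (2 at an unadjusted p under 0.05). The smallest p in RC against DC were those of Cisd1 (0.33 ± 0.14) and Iscu (0.24 ± 0.10), whose second row gave 0.35 ± 0.10 (adjusted p = 0.0916). In RC against CC they were those of Nfs1 (-0.26 ± 0.07) and Hspa9 (0.33 ± 0.12).

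Of 5 further genes whose messages are known to hold an iron-responsive element, 1 differed in DC against CC (20%, beside 6.64% of all rows). The phosphatase gene Cdc14a, whose element was described in human, fell by 0.53 ± 0.09 (limma adjusted p = 0.00380) and passed with each single array left out. It averaged 7.75 ± 0.09 in RC, 7.44 ± 0.14 in DC and 7.97 ± 0.17 in CC (SD, n = 4 each), with no overlap between RC and DC or between DC and CC. All 3 means lie below the median of all values. Of all rows 3.06% were higher in RC than in DC without overlap, and 7.96% were lower in DC than in CC without overlap. None of the 5 passed by limma in RC against DC or in RC against CC (1 at an unadjusted p under 0.05 in each), where Cdc14a stood at 0.32 ± 0.09 and -0.22 ± 0.09 and the hypoxia-inducible factor gene Epas1 at -0.09 ± 0.10 and 0.17 ± 0.10. Without RC 3, Cdc14a passed in RC against DC (0.35, adjusted p = 0.0469).

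The rows most like Slc40a1 over the 12 arrays were those of the phospholipase family gene Pld5, of Slc16a10, a carrier of aromatic amino acids, and of Twsg1, a modulator of BMP signalling, each with Pearson's r = 0.98. Slc16a10 was lower by a difference of -1.49 in DC against CC, higher by 0.93 in RC against DC and lower by a difference of -0.56 in RC against CC. Pld5 stood at -1.03, 0.60 and -0.43 in the same comparisons and Twsg1 at -1.23, 0.90 and -0.32. For Slc11a2 the most similar rows were Gpaa1, Ube4a and Tyw1 (r = 0.97 each), which differed by -0.37, -0.36 and -0.23 in DC against CC and by 0.07, 0.08 and 0.04 in RC against DC. The 12 arrays are 3 groups of cultures, so r mainly reflects the order of the group means, and the rows were picked from all named rows for their likeness.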

How the data were processed

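The authors' deposited table holds log2 expression values, 1 for each of 35556 probe sets on each of 12 arrays. Per the labels' protocols, total RNA was labelled as biotinylated cDNA. No source used here names the summarising software or any normalization. Their range, 3.69 to 14.5, is that of log2 values. Condition and replicate number came from the sample titles. Rows were named through the platform annotation (21789 with 1 symbol, 1621 with several, 12146 with none), and 701 rows repeat the values of another row. Promoter sequences are RefSeq's (GRCm38.p6). The array number limits precision.

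With limma 3.58.1 in R 4.3.3 (lmFit, contrasts.fit, eBayes), the 3 condition means were fitted over the 12 arrays (9 residual degrees of freedom). P-values are two-sided. For each comparison they were adjusted over every row (Benjamini-Hochberg) and called under 0.05. Counts of list genes at an unadjusted p under 0.05 are given without the share of all rows, which was not counted. The fit was tested on simulated data with independent noise for each value. That simulation did not hold the array differences seen within CC and for RC 3, so it cannot show how they act on the calls. Where a gene had several rows, that with the highest mean was used.

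All 8 members were named by rule. Of each list up to 4 called genes with the largest difference were named in each comparison, or the 2 with the smallest p, and, for members with a call, the 3 rows most correlated with them. The members and lists were chosen with earlier results of these data known. Some listed genes were not analysed here. Alternatives were 2 other scalings, fits of the compared groups alone, array weights, a replicate block, a filter on dim rows, an intensity trend and single arrays left out. Fits on either pair of CC arrays, and leaving out DC 2, DC 4 and RC 3 (those with the narrowest spread), were added after seeing the data.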

Additional observations from a re-analysis of the deposited data

Results flagged for a closer look

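Among the 24 groups of 4 arrays tested (8 genes in 3 conditions), 1 held an array far from the others: Heph on RC 3 read 7.18, with 0.838 of the RC range lying between it and the next array, above Dixon's 95% critical value. Chance flags about 1 in 20 such groups. RC 3 is also the array with the lowest correlation with its group, and its part in the Heph value was not tested.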

How the results depend on the processing

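Slc40a1 kept its direction in all 3 comparisons, and its calls in DC against CC and RC against DC, under all 22 alternatives. Over the 8 genes and the other genes called in the lists, 605 of 721 repeated values kept direction and side of the threshold, 89 lost a call, 10 gained one and 17 turned direction. The causes were not tested. With array medians made equal, RC against CC turned to -0.043 for Aco1 and -0.011 for Steap3, 1 other iron gene passed in RC against CC, and the split of all rows in DC against CC was 502 higher and 1698 lower (823 and 1537 as reported). With quantile normalization 2 iron-sulfur genes (both higher) and 2 genes with an iron-responsive element passed in DC against CC and 2 members in RC against DC. With the compared groups alone 462 rows passed in RC against DC (936 as reported) and 0 iron-sulfur genes in DC against CC.

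With array weights 4840 rows passed in DC against CC, 6413 in RC against DC and 2818 in RC against CC. They gave 3 members in RC against DC and 3 in RC against CC, 4, 5 and 5 other iron genes, 3 heme genes in RC against DC and 4 in RC against CC, 5, 2 and 4 iron-sulfur genes, and 1 gene with an iron-responsive element in RC against DC and 1 in RC against CC. Heph turned to -0.11 in RC against DC and Ireb2 to 0.13 in RC against CC. Same-numbered arrays deviated together for replicate 1 in all 3 comparisons (correlations 0.18, 0.32 and 0.47) but not throughout for replicates 2 to 4 (-0.36 to 0.38), so the numbers were not taken as pairs. With the replicate block 68 rows (283 as reported), 0 members and 0 heme genes passed in RC against CC, with Slc40a1 at -0.47 (adjusted p = 0.122), and 2 heme and 0 iron-sulfur genes in DC against CC. With dim rows left out 2 members passed in RC against DC and 2 in RC against CC, with 439 rows and 1 other iron gene in RC against CC, and 2 iron-sulfur and 0 genes with an iron-responsive element in DC against CC. Heph, Cdc14a and Flvcr2 were not in that fit, which left 2 genes with an iron-responsive element. With the intensity trend 0 iron-sulfur genes passed in DC against CC.

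With CC 1 and CC 2 as the sole CC arrays 1568 rows and 1 other iron gene passed in DC against CC, and 18 rows, 0 members and 0 heme genes in RC against CC. Aco1 turned to -0.028 in DC against CC and -0.12 in RC against CC, and Fth1 to -0.014 in RC against CC. With CC 3 and CC 4, 991 rows, 1 member, 1 other iron gene, 0 heme, 0 iron-sulfur and 0 genes with an iron-responsive element passed in DC against CC, and 23 rows, 0 members and 0 heme genes in RC against CC. Ireb2 turned to 0.051 and Steap3 to -0.0075 in RC against CC. Without the 3 arrays of narrowest spread 1 other iron and 2 heme genes passed in DC against CC and 580 rows in RC against CC, with Heph at -0.048 in RC against DC and Ireb2 at 0.064 in RC against CC.

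With single arrays left out, rows called ranged from 1549 to 3718 in DC against CC, from 522 (without RC 1) to 2892 (without RC 3) in RC against DC and from 57 to 352 in RC against CC. Members called were 2 throughout, 1 to 2 and 0 to 2 in the same order. Other iron genes were 1 to 4, 0 to 2 and 0 to 1, heme genes 1 to 4, 0 throughout and 0 to 2, iron-sulfur genes 0 to 3, 0 to 1 and 0 throughout, and genes with an iron-responsive element 1 throughout, 0 to 1 and 0 throughout. Aco1 ranged from -0.041 to 0.054 and Ireb2 from -0.11 to 0.064 in RC against CC, and Heph from -0.10 to 0.065 in RC against DC, across 0 in each case. No detection call was available, so what signal over background limits could not be set.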
